A study of Mus musculus with 36 samples.

Results

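The genes described here are the 83 rows of the count table whose symbol names a protein of the cytosolic ribosome: symbols of the form Rpl or Rps with a number, the stalk proteins Rplp0, Rplp1 and Rplp2, and Rpsa. They are 83 of 54842 genes in the table, and all 83 were among the 18193 genes abundant enough to be tested. The symbols assign 51 of them to the large (60S) subunit, stalk included, and 32 to the small (40S) subunit. The rule uses names alone and no measured value.

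RNA came from mouse embryonic stem cells grown without serum in 2i medium, with inhibitors of MEK and GSK3β, plus leukaemia inhibitory factor. Cells were wild type (WT) or LiTEC transfected, LiTEC being a construct for targeting by light, and every culture, controls included, had received doxycycline at 2 µg/ml for 2 days. Lit cultures stood on a blue LED panel for 30 min and dark cultures did not; RNA was taken 0, 1 or 4 h afterwards, which gives 12 groups of 3 libraries of poly(A) RNA. The labels give replicate 1 of every group as batch 1 and replicates 2 and 3 as batch 2. They do not say whether the LiTEC cells are 1 clone or how the construct is driven, nor whether each replicate was its own culture. P-values here therefore reflect spread among libraries, some of which may be technical.

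A ribosome carries 1 copy of most of its proteins, so their mRNAs are made in broadly matched amounts and are among the most abundant in a growing cell. Most begin with a C followed by an unbroken run of pyrimidines, the 5′ terminal oligopyrimidine or TOP motif, through which mTORC1 and the RNA-binding protein LARP1 control their translation and stability. Several of the genes also hold small nucleolar RNA (snoRNA) genes in their introns, and many have processed pseudogenes elsewhere in the genome. In embryonic stem cells, high ribosome production accompanies fast division.

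The start-site letters are shown first because the TOP motif is the feature most members are known to share. RefSeq promoter entries (GRCm38.p6) matched 61 of the 83 members. At a listed start, 14 of these 61 (23%) had a pyrimidine run of at least 5 letters that begins with C, against 3.01% of 27025 genes. Allowing that run to begin within 10 bases of the start gave 39 of 61 (63.9%), against 34.4% of all genes. Only the strand of the gene was searched, and a missing run says only that these letters are not at the listed start. Below are 20 bases before and 10 bases from the start, 5′ to 3′ on the strand of the gene, with the pyrimidine run from the start in capitals. Rps15a (chr7:118116138-118116167, minus strand), Rpl34 (chr3:130730328-130730357, minus strand) and Rpl24 (chr16:55966255-55966284, plus strand) are shown because they were called in WT cells after light. Rps6 (chr4:86857358-86857387, minus strand), Rpl15 (chr14:18270977-18271006, minus strand) and Rpl35 (chr2:39005122-39005151, minus strand) are shown as clear cases of the run.
Rps15a: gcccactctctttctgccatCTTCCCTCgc
Rps6: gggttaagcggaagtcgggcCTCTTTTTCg
Rpl15: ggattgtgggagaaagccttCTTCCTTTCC
Rpl35: gaagtcggccccgccctttcCTCTTTCTCT
Rpl34: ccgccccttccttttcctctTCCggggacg
Rpl24: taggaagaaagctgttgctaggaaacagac

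Rps15a, Rps6, Rpl15 and Rpl35 open with C and a pyrimidine run, and the 1 listed Rpl24 start has none. Rpl34 has 2 listed starts: the one shown has a run of 3 that opens with T, and the other opens with A and has a run of 0.

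Library totals ran from 11132970 to 21842256 counts, and the 83 genes took 2.69% to 3.59% of them. The ribosomal RNA locus Gm26917 took 8.12% to 26.1% of counts, the highest share being that of dark WT replicate 3 at 4 h. Without Gm26917 and a related locus, Gm42418, the members took 3.43% to 4.04%. Levels are in CPM, counts per 1e6 of a library's scaled total over the tested genes. Embryonic stem cell markers on a fixed list of 8 summed to 2392 to 3943 CPM in WT and 2765 to 3941 CPM in LiTEC libraries. All 8 reached at least 1 CPM in both genotypes. Of 8 fibroblast markers, 2 reached that level, with sums of 5.06 to 10.9 CPM in WT and 2.82 to 7.55 CPM in LiTEC cells, Lum being at 0 in all WT and Dcn in all LiTEC libraries. Of 8 primitive endoderm markers 4 reached it, with sums of 101 to 150.3 CPM in WT and 80.4 to 139 CPM in LiTEC cells, and of 8 neural markers 5, with sums of 109.7 to 139.8 and 95.0 to 132 CPM.

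Members differed widely in level. Divided by the length of the annotated mRNA, the mean over 36 libraries was highest for Rps12 (1349.9 CPM per kb), Rplp2 (1132) and Rps2 (1034), and the median member stood at 508 CPM per kb. At least 100 CPM per kb was reached by 74 of 83. These values depend on the annotated length, which may differ from that of the mRNA in these cells. Rps20, at 406 CPM, is annotated with 3706 bases and so stood at 110 CPM per kb. Rpsa, the laminin-receptor protein of the small subunit, stood at 928 CPM per kb, Rplp1 at 892 and Rplp0 at 352; the stalk holds more than 1 copy of P1 and P2 per ribosome, as background. The lowest 3 were Rpl3l (0.437 CPM per kb), the striated-muscle relative of Rpl3, and 2 single-exon genes, Rpl6l (2.75) and Rpl32l (3.30), that GENCODE M21 classes as processed pseudogenes. Rps4l, at 266 CPM per kb, is likewise annotated there as a transcribed processed pseudogene.

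Tissue-restricted relatives lay far below their counterparts per length. Rpl10l, the testis relative of the X-linked Rpl10, stood at 27.7 CPM per kb against 568 for Rpl10, and Rpl39l, a relative of Rpl39 used in the testis, at 18.7 against 307 for Rpl39. Rps27l, a relative of Rps27, was less far below it, at 231 against 776 CPM per kb. Near-identical sequence elsewhere makes these levels uncertain, since the handling of reads that match several places is not given in the sources used here. At least 1 named pseudogene was found for 60 of the 83 members, and the same limit applies to them.

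For 3 low members more than 50% of the mRNA bases are shared with another gene on the same strand, and that other gene had 0 counts in the table. Rps10 (chr17:27630418-27636669, minus strand) shares 91.6% with RPS10-NUDT3, Rpl24 (chr16:55966275-55971435, plus strand) 71.5% with Gm28037, and Rpl13a (chr7:45125558-45128761, minus strand) 59.3% with Gm45713. Their levels were 38.2, 8.65 and 82.1 CPM per kb, ranks 77, 80 and 75 of 83. How reads lying in 2 genes were counted is not given, and its part in these low levels was not tested. Rpl35 and Rpl23a share 68.3% and 55.4% of their mRNA with opposite-strand genes, so their counts are uncertain too unless strand was used in counting.

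**Figure D1:**
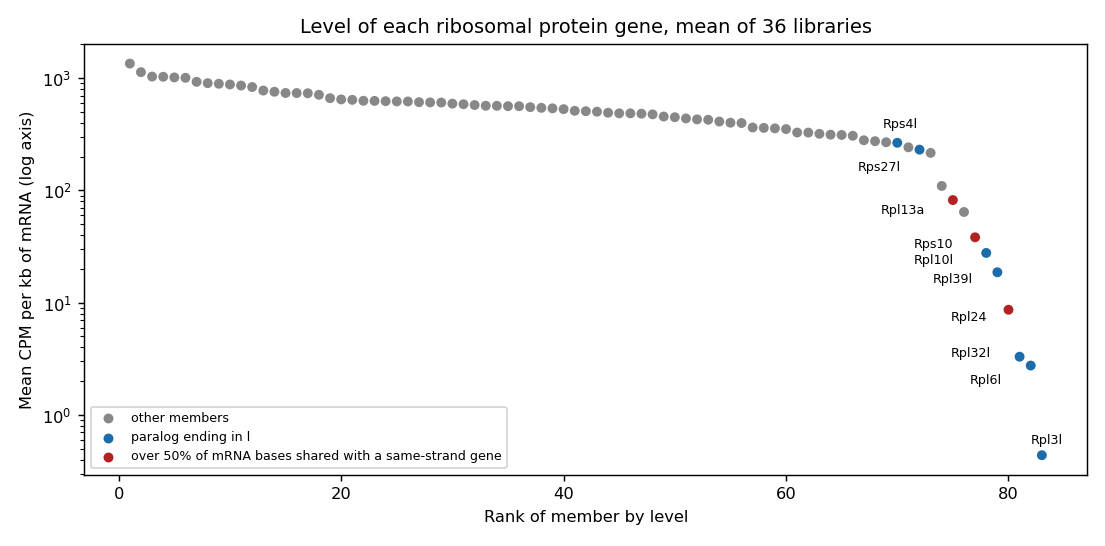
Mean level over 36 libraries in CPM per kb of mRNA (log axis) for the 83 genes in order of level; blue, the 7 relatives whose symbol ends in l; red, the 3 genes sharing over 50% of their mRNA with a same-strand gene. Levels run from 0.437 for Rpl3l to 1349.9 for Rps12, and the red genes all lie below 100 CPM per kb.

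Over the 36 libraries the coefficient of variation of a member was lowest for Rpl7a (4.72%), Rps15 (4.88%) and Rpl27a (5.12%). It was highest for Rpl39l (41.4%), Rpl6l (31.8%), Rpl3l (30.7%), Rpl32l (27.3%) and Rpl24 (23.2%), which were all among the lowest in level. The 12 comparisons below were made with edgeR's quasi-likelihood test, fitted on all tested genes with a term for batch. A gene was called at a Benjamini-Hochberg adjusted p below 0.05. CPM is relative to the scaled total of the tested genes in a library and is no absolute amount. In bulk libraries fewer cells of a type and less RNA per cell cannot be told apart.

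The first question was how these genes differed between lit and dark WT cells, which lack the construct. Light and anything else that came with standing on the panel cannot be told apart. Right after light, ribosomal protein mRNAs were lower by a small amount across almost the whole set: 81 of 83 log2 fold changes were negative, with a median of -0.14 beside -0.01 over all tested genes. Members vary together between libraries, so such counts of members, here and below, are not counts of separate observations. Among the lit WT libraries at 0 h, 29 of 80 members lay above their group mean in replicate 2 and 63 in replicate 3. The median deviations there were -0.06 and 0.07. The test called 6 members lower and 0 higher, 7.23% of the members beside a background of 1.2% of all tested genes called lower, 1.66% called higher and 2.86% in either direction. The 6 were Rpl24, Rps15a, Rpl3, Rps20, Rpl34 and Rpl7. Both subunits took part: all 32 small-subunit genes were negative with a median of -0.14, and 49 of 51 large-subunit genes with a median of -0.12. The positive members were Rpl3l and Rpl32l, both under 2 CPM. Cell type markers also differed: all 8 embryonic stem cell markers were negative, with a median of -0.12 and 1 called lower, and 6 of the 7 primitive endoderm markers tested were positive, with a median of 0.15 and 0 called. The 5 fibroblast and 5 neural markers tested had medians of -0.04 and -0.06 with 0 called, and the part of any of these in the members' change was not tested. With the replicate number as a block in place of batch, the count was 12 lower, and with batch 2 alone it was 1.

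**Figure D2:**
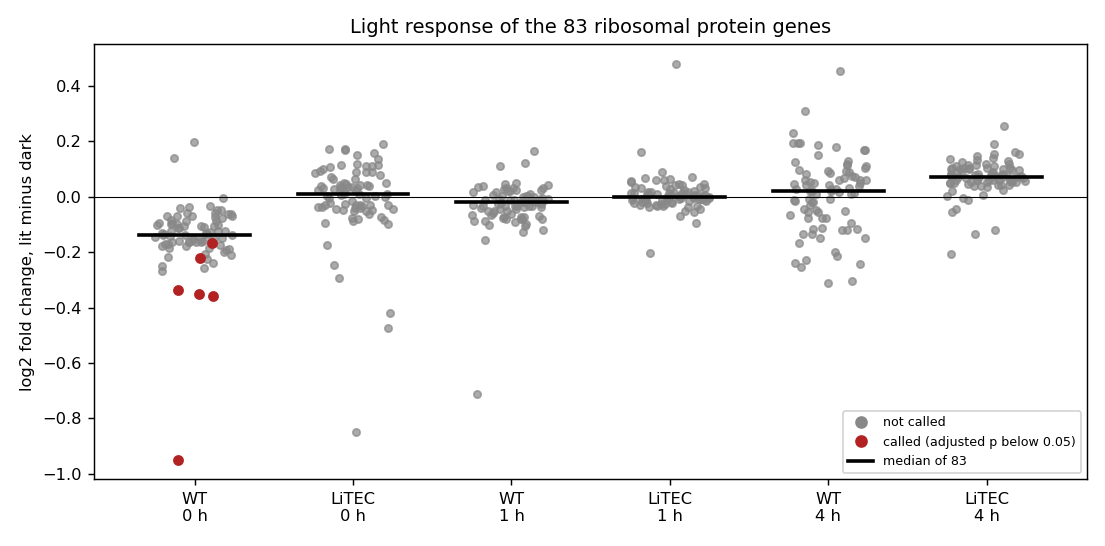
log2 fold change of lit against dark libraries for each of the 83 genes (points; red, called) and their median (bar) in 6 comparisons. In WT cells at 0 h the median is -0.14 with 6 called, and in the other 5 comparisons 0 are called and medians lie between -0.02 and 0.07.

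The 2 small-subunit members called have separate places in the 40S particle. Rps15a, called uS8 in the common nomenclature, binds 18S rRNA early in 40S assembly (chr7:118104372-118116188, minus strand). It stood at 218, 208 and 260.1 CPM in dark WT replicates 1, 2 and 3 and at 167, 163 and 205 CPM in the lit ones. Every lit library was below every dark one, and the fold change was -0.36 ± 0.07 (SE; adjusted p = 0.001). The call held in each of 6 fits that left out 1 of these libraries, but not with batch 2 alone (adjusted p = 0.12).

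Rps20, or uS10, lies in the head of the 40S subunit (chr4:3831334-3835665, minus strand). It measured 395, 369 and 436 CPM in the dark and 326, 301 and 325 CPM in the light. The groups did not overlap, with a fold change of -0.34 ± 0.08 (SE; adjusted p = 0.0156). The call was lost without lit replicate 1 (adjusted p = 0.0701), without lit replicate 2 (0.0858) or without dark replicate 3 (0.168).

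Among large-subunit genes, Rpl3 (uL3) reaches towards the peptidyl transferase centre, where peptide bonds form (chr15:80077791-80091868, minus strand). Its levels were 459.9, 449.9 and 502 CPM in the dark and 378, 326 and 403 CPM in the light. All lit values lay below all dark values, and the fold change was -0.35 ± 0.07 (SE; adjusted p = 0.00414). The adjusted p rose to 0.0663 without lit replicate 2 and to 0.0506 without dark replicate 3. Rpl3 holds snoRNA genes in its introns, as does Rps20. The 2 named Rpl3 pseudogenes together averaged 2475.5 counts a library, beside 8084 for Rpl3. How reads matching both were counted is not given.

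Rpl24 (eL24), which takes part in a bridge between the subunits, had the largest log2 fold change of the called members but a low level: 5.23, 5.88 and 6.05 CPM in dark and 2.91, 2.87 and 3.09 CPM in lit libraries. The lit values fell in a narrow band well under the dark ones, with a fold change of -0.95 ± 0.17 (SE; adjusted p = 0.000503). The call held in all 6 fits without 1 library and in all 8 other settings tried. How reads in the bases it shares with Gm28037 were counted is not given.

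Rpl34 (eL34) and Rpl7 (uL30) were nearest to the threshold. Rpl34 had 109, 107 and 107 CPM in the dark and 90.1, 93.6 and 93.9 CPM in the light, without overlap, and changed by -0.22 ± 0.06 (SE; adjusted p = 0.0389). Leaving out any 1 of the 6 libraries ended its call, with adjusted p from 0.0564 to 0.155. Rpl7 had 709, 785 and 774 CPM in the dark and 640.2, 659 and 723 CPM in the light. Its groups overlapped, the change was -0.17 ± 0.05 (SE; adjusted p = 0.0498), and only the fit without lit replicate 3 kept the call (adjusted p = 0.0271), the 5 others giving 0.1 to 0.277.

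**Figure D3:**
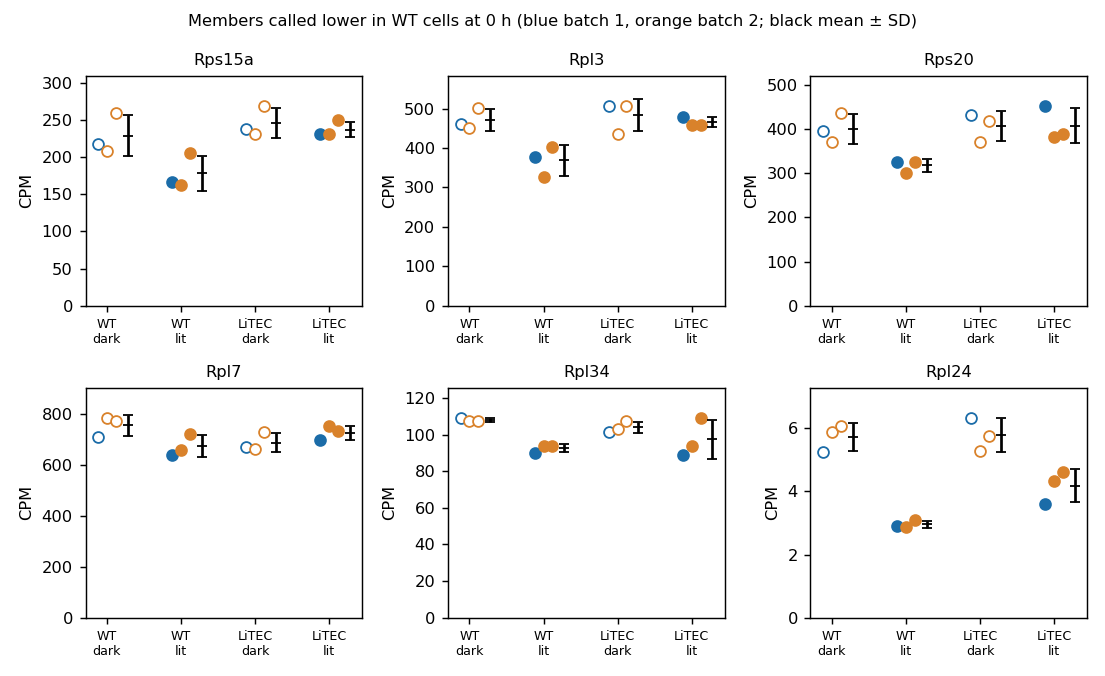
CPM of the 6 genes called lower in WT cells at 0 h, in each dark (open) and lit (filled) library of WT and LiTEC cells; black marks give the mean ± SD of 3. In WT cells the lit libraries lie under the dark ones for every gene but Rpl7, whose ranges overlap; in LiTEC cells only Rpl24 shows no overlap.

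Members that were not called mostly leaned the same way, and the counts given next are over all 83, called members included. In 27 of 83 every lit library lay below every dark one, beside 7.23% of all tested genes, and in 0 every lit library lay above, beside 7.71%. An unadjusted p below 0.05 was reached by 34 members, all lower, beside 6.4% of all genes for the lower direction. Rps19, a 40S gene mutated in Diamond-Blackfan anaemia, was without overlap but missed the threshold at -0.21 ± 0.06 (SE; adjusted p = 0.0633). The same held for Rps27a, made as a fusion with ubiquitin, at -0.17 ± 0.07 (SE; adjusted p = 0.225). Rps14 is another anaemia-linked 40S protein, and its value was -0.24 ± 0.14 (SE; adjusted p = 0.465). Rps6, the S6 kinase substrate, gave -0.15 ± 0.09 (SE; adjusted p = 0.542), and its ranges overlapped.

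Rpl5 and Rpl11, which join 5S rRNA in a particle that can bind MDM2, measured -0.13 ± 0.06 (SE) and -0.10 ± 0.06 (SE) on the log2 scale, with adjusted p = 0.344 and 0.502. The stalk genes Rplp0, Rplp1 and Rplp2, which recruit translation factors, were at -0.16, -0.16 and -0.13, and 0 of the 3 were called. Rpl10, which joins the 60S particle last, was at -0.22 ± 0.08 (SE; adjusted p = 0.16). Rpsa, one of the most abundant members, had the smallest change of these at -0.09 ± 0.06 (SE) and was not called.

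The members' combined share of counts moved with these values. Without the 2 ribosomal RNA loci it was 3.72%, 3.80% and 3.90% in the dark WT libraries at 0 h and 3.49%, 3.43% and 3.65% in the lit ones. The lit libraries all lay below the dark ones. Both batches carried it: the median log2 difference was -0.12 in batch 1, with 80 of 83 negative, and -0.14 in batch 2, with 79 negative. Gm26917 averaged 9.99% of counts in the dark and 10.4% in the lit libraries, and with both loci removed from the counts 7 members were called, all lower. Scaling the libraries only on genes that are not members left 6 lower.

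**Figure D4:**
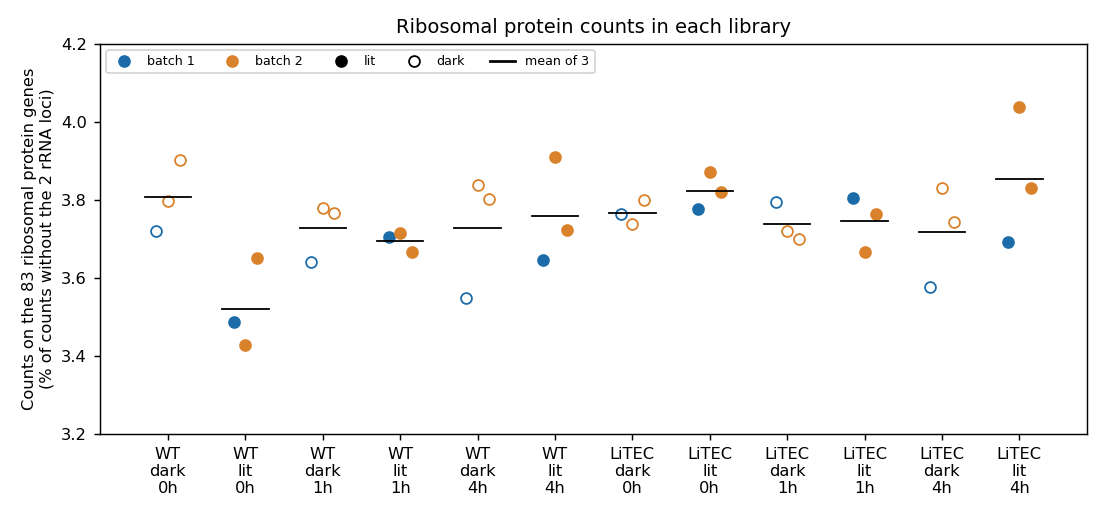
Percent of counts on the 83 genes in each of 36 libraries, after leaving out Gm26917 and Gm42418 (vertical axis from 3.2%); open points are dark and filled points lit libraries, colours mark batch, and bars give the mean of 3. The 3 lit WT libraries at 0 h lie between 3.43% and 3.65%, below the 3 dark WT libraries at 0 h.

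The 675 other genes with at least 230 CPM had a median of -0.02, with 61.5% negative and 2.96% called. The 29 members that hold snoRNA genes and the 54 that do not had medians of -0.13 and -0.14 and 2 and 4 called lower. Grouped by start letters, the 14 with a C-led pyrimidine run had a median of -0.14 with 1 called, the 47 with another listed start -0.14 with 2 called, and the 22 with no RefSeq start listed -0.13 with 3 called. A C-led run began within 10 bases of a listed start in 39 of 61 members. Some of the 47 therefore have such a run nearby, so this split does not separate genes with and without the TOP motif. Differences between the groups of either split were not tested.

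Genes of related pathways, on lists chosen with earlier results of these data known, gave a mixed picture in WT cells at 0 h. Of all tested genes 2.86% were called there, 1.2% being lower, and lists with few calls are near that share. Mitochondrial ribosomal proteins, which serve the separate ribosome of that organelle, had a median of -0.10, and 2 of 77 were called, Mrpl14 at -0.46 ± 0.12 (SE) and Mrps14 at -0.41 ± 0.11 (SE), both lower. Other translation genes with TOP mRNAs had a median of -0.07 and 1 of 25 was called, Eif4a2, an initiation-factor helicase that fell from 509 to 400.5 CPM (-0.35 ± 0.06 (SE; adjusted p = 0.000247)). Of 45 ribosome assembly factors 2 were called lower, the nucleolar GTPase Gnl3 (-0.25 ± 0.05 (SE)) and the 60S export adaptor Nmd3 (-0.24 ± 0.06 (SE)), with a median of -0.02. Among 15 RNA polymerase I genes and 18 genes of mTORC1, LARP1 and MYC control, 0 were called, with medians of -0.02 and 0.01.

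Noncoding snoRNA hosts, several of which are known to begin with TOP motifs, carried more calls. Of 12, 10 were lower, beside 1.2% of all tested genes, with a median of -0.87. Gas5 went from 249 to 129 CPM (-0.96 ± 0.07 (SE)) and Snhg4 from 162 to 62.0 CPM (-1.40 ± 0.10 (SE)). Of 4 relatives that the symbol rule misses, 1 was called, Rpl22l1, from 27.8 to 19.9 CPM (-0.49 ± 0.12 (SE; adjusted p = 0.0162)).

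In LiTEC cells right after light the members' median was 0.01, 36 of 83 were negative, and 0 were called, beside a background of 0.934%. DESeq2 also called 0. An unadjusted p below 0.05 was reached by 4, all lower, beside 5% of all genes: Rpl24, Rpl32l, Rpl29 and Rps10. These same 4 were the members with every lit library below every dark one (background 5.6%), and 4 others, Rpl8, Rps2, Rps16 and Rps21, had every lit library above (5.97%). They were chosen for naming after their values were seen.

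Rpl24 was again lower in each lit library, at 3.61, 4.34 and 4.60 CPM against 6.33, 5.27 and 5.75 CPM in the dark, with -0.47 ± 0.16 (SE; adjusted p = 0.21). Rps15a, by contrast, stood at 237, 231 and 269 CPM in the dark and 231, 231 and 249 CPM in the light, overlapping ranges with -0.05 ± 0.07 (SE; adjusted p = 0.865). Rpl3 had 507, 437 and 506 CPM in the dark and 480.0, 459 and 458 CPM in the light (-0.05 ± 0.07 (SE; adjusted p = 0.871)). Rps20 changed by 0.00 ± 0.08 (SE), Rpl34 by -0.10 ± 0.06 (SE) and Rpl7 by 0.08 ± 0.05 (SE), none of them called. Within batches the LiTEC median was -0.04 in batch 1 and 0.04 in batch 2. Gm26917 averaged 9.89% of counts in the dark and 12.8% in the lit libraries, with 16.3% in lit replicate 1. Without that library the members' median was 0.02 and 0 were called. With both ribosomal RNA loci removed from the counts 0 were called as well. The noncoding snoRNA hosts were lower in LiTEC cells as well, with 7 of 12 called, beside 0.934% of all tested genes, and a median of -0.44. Gas5 fell by 0.44 on the log2 scale (adjusted p = 0.000434).

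The difference of the light effect between LiTEC and WT cells, tested as an interaction, showed 0 called members at 0 h, beside 0.022% of all genes. DESeq2 also called 0, and without an expression filter 2 were higher. The median difference was 0.16, with 75 of 83 positive, beside 0.01 over all genes. An unadjusted p below 0.05 was reached by 27 members, beside 6.21% of all genes, and 26 of them were positive, beside 3.07%. For the 6 genes called in WT cells the differences were 0.48 ± 0.23 (SE) for Rpl24, 0.31 ± 0.09 (SE) for Rps15a, 0.30 ± 0.10 (SE) for Rpl3, 0.34 ± 0.12 (SE) for Rps20, 0.13 ± 0.09 (SE) for Rpl34 and 0.24 ± 0.07 (SE) for Rpl7. Their adjusted p ran from 0.663 for Rpl7 to 0.876 for Rpl34. The light responses of the 2 genotypes are therefore not shown to differ for any single member, at a median standard error of 0.10 for the difference. Of the related genes, 1 of 12 noncoding snoRNA hosts was called, Gas5 at 0.52 ± 0.09 (SE; adjusted p = 0.0163).

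At 1 h after light, 0 members were called in WT cells (background 0.286%) and 0 in LiTEC cells (0.115%), and DESeq2 called 0 in both. Medians were -0.02 in WT and 0.00 in LiTEC cells. Rps15a, Rpl3 and Rps20 were at 0.00, -0.01 and -0.01 in WT cells, each with a standard error of at most 0.08. An unadjusted p below 0.05 was reached by 1 member in WT cells, Rpl11 at -0.16 ± 0.06 (SE; adjusted p = 0.452), beside 7.07% of all genes, and by 0 in LiTEC cells, beside 6.26%. In 6 WT members, Rpl11 among them, every lit library lay below every dark one, beside 4.52% of all genes. In LiTEC cells 2 had every lit library above, beside 4.63%.

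At 4 h after light, 0 members were called in WT cells, as were 0% of all genes, and 0 in LiTEC cells, beside 0.011%; DESeq2 called 0 members in both. Without an expression filter, 3 were called in WT cells, 1 higher and 2 lower. The WT median was 0.02, and 9 had an unadjusted p below 0.05, beside 8.16% of all genes, with 5 higher and 4 lower. Rps6 stood at 329, 408 and 579 CPM in the dark and 336, 389 and 379 CPM in the light, with -0.24 ± 0.09 (SE; adjusted p = 0.504). Rpl10 stood at 425, 471 and 349.7 CPM in the dark and 456, 474 and 483 CPM in the light, with 0.18 ± 0.08 (SE; adjusted p = 0.573). The highest Rps6 value and the lowest Rpl10 value are both those of dark replicate 3, the library with 26.1% of counts on Gm26917, and for both genes the other dark values overlap the lit ones. Without that library the members' median was again 0.02 and 0 were called. In LiTEC cells 76 of 83 were positive, with a median of 0.07 beside 0.03 for the 675 other abundant genes. There 12 members had every lit library above every dark one, beside 5.07%, and 4 had an unadjusted p below 0.05, all higher, beside 3.02%. The median was 0.06 in batch 1 and 0.09 in batch 2, but it was 0.03 without lit replicate 2. The interaction called 0 members at 1 h and 0 at 4 h, as it did 0% of all genes at both times, and DESeq2 called 0 members at both. Unadjusted p was below 0.05 for 1 member at 1 h (background 2.08%) and for 4 at 4 h (3.61%).

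The second question was how the LiTEC cells differ from WT cells without light. Over the 9 dark libraries of each genotype 27 members were called, 9 higher (background 23.9%) and 18 lower (23.7%) in LiTEC cells. That is 32.5% of members, below the background of 47.6% of all genes and the 65.3% of the other abundant genes. Most differences were small, with a median of -0.04. Cell type markers differed here too: of 8 embryonic stem cell markers 5 were called lower and 2 higher (median -0.18), of 7 primitive endoderm markers tested 2 lower and 4 higher (0.88), of 5 fibroblast markers tested 3 lower and 0 higher (-1.50), and of 5 neural markers tested 2 lower and 1 higher (-0.18). Their part in the members' differences was not tested. This comparison uses the dark WT libraries that also served the light comparisons. The construct and any other difference between the LiTEC and WT cells cannot be told apart.

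**Figure D5:**
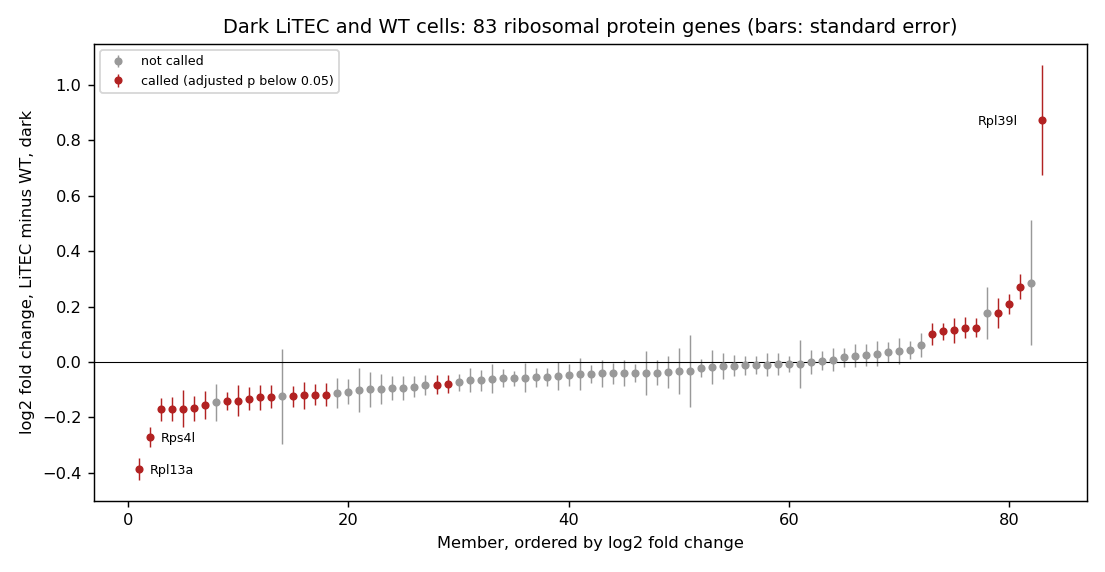
log2 fold change of dark LiTEC against dark WT libraries (9 each) with its standard error for the 83 genes, in order; red, called. Rpl13a at -0.39 and Rps4l at -0.27 are lowest and Rpl39l at 0.87 is highest, while most called genes lie within 0.2 of 0.

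Rpl13a (uL13), known also for a role outside the ribosome in silencing inflammatory mRNAs, was lower in LiTEC cells. It ran from 85.9 to 107 CPM with a median of 98.7 in dark WT libraries and from 70.5 to 79.6 CPM with a median of 74.4 in dark LiTEC libraries. The lowest WT value was that of replicate 3 at 4 h, the library with 26.1% of counts on Gm26917. The ranges did not meet, and the fold change was -0.39 ± 0.04 (SE; adjusted p = 6.92e-10).

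Rps4l, an intronless copy of the Rps4x gene (chr6:148354656-148355598, plus strand), ran from 259 to 301 CPM with a median of 272 in WT and from 215 to 242 CPM with a median of 229 in LiTEC cells. Every LiTEC library was below every WT one, with -0.27 ± 0.04 (SE; adjusted p = 1.53e-07). Rps4x itself, named as the parent gene, was lower by less, -0.08 ± 0.03 (SE; adjusted p = 0.0476), and its reads may be shared with this copy. That call held in only 3 of 18 fits without 1 library and in 4 of 8 other settings. Members without overlap in this direction were these, Rpl13a and Rps4l, 2 of 83, beside 3.64% of all genes.

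Rpl39l was the member with the largest rise, at a low level. Dark WT libraries ran from 2.98 to 12.6 CPM with a median of 7.68 and dark LiTEC libraries from 7.26 to 16.8 CPM with a median of 13.6. The spread within each genotype was wide and the ranges overlapped, with 0.87 ± 0.20 (SE; adjusted p = 0.000438). Rpl13 (eL13) was the 1 member with every LiTEC library above every WT one, beside 4.23% of all genes. It ran from 474 to 557 CPM with a median of 539 in WT cells, the lowest value being that of replicate 3 at 4 h. In LiTEC cells it ran from 594 to 655 CPM with a median of 610.3. The fold change was 0.21 ± 0.04 (SE; adjusted p = 8.75e-06).

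Smaller calls on the higher side included Rps19 at 0.12 ± 0.04 (SE) and Rps15a at 0.12 ± 0.04 (SE). On the lower side were Rpl22 at -0.17 ± 0.04 (SE), whose protein binds RNA and is not essential for translation, Rpl38 at -0.17 ± 0.04 (SE), known for selective translation of Hox mRNAs, Rps27l at -0.17 ± 0.07 (SE) and Rps3, at the mRNA entry channel, at -0.17 ± 0.05 (SE). Their ranges all overlapped between genotypes. The Rps27l call held in 10 of 18 fits without 1 library and in 6 of 8 other settings, with adjusted p up to 0.284. Rpl11 was also called lower, at -0.08 ± 0.03 (SE; adjusted p = 0.0443), but 12 of the 18 fits that left out 1 library lost that call. Rpl3l, at 0.541 ± 0.143 CPM (SD, n = 9) in WT and 0.661 ± 0.215 CPM (SD, n = 9) in LiTEC cells, was not called.

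Related genes are read here against a background of 23.7% called lower among all genes and 299 of the 675 other abundant genes called lower. Of 45 assembly factors 35 were called lower and 0 higher, with a median of -0.19. Of 15 RNA polymerase I genes 9 were lower and 0 higher (-0.17), and of 77 mitochondrial ribosomal proteins 47 were lower and 5 higher (-0.15). Of 25 TOP translation genes 12 were lower and 3 higher, with a median of -0.06. The median over the 675 other abundant genes was -0.06.

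The last question was whether the members drift in dark cultures between the sampling times. From 0 to 1 h, 0 were called beside 1.31% of all genes, and DESeq2 called 0. With the replicate block 1 was called, and 3 had an unadjusted p below 0.05, beside 12.3% of all genes. From 0 to 4 h, 11 members were called lower and 0 higher, 13.3% of members beside 7.65% of all genes called lower, 7.82% called higher and 15.5% in either direction. Of the 675 other abundant genes 23.4% were called, 123 lower and 35 higher, with a median of -0.04 and 65.6% negative. The members' median was -0.05, with 62 of 83 negative. Whether the members drift differently from other abundant genes was not tested. With the replicate block the count was 19, of which 18 were lower.

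The 11 were Rpl19, Rpl29, Rpl35, Rpl23, Rps12, Rpl21, Rps29, Rpl36a, Rps24, Rpl14 and Rpl30. Rpl23 (uL14), a 60S protein that can also bind MDM2, ran from 502 to 617 CPM with a median of 557 at 0 h and from 441 to 547 CPM with a median of 473 at 4 h, over both genotypes. The change was -0.20 ± 0.05 (SE; adjusted p = 0.00656). Rps12 (eS12), a 40S protein known in flies for a part in cell competition, ran from 601 to 788 CPM with a median of 706 at 0 h and from 527 to 731 CPM with a median of 615 at 4 h, with -0.20 ± 0.05 (SE; adjusted p = 0.00657). Rpl21 (eL21) changed by -0.19 ± 0.05 (SE; adjusted p = 0.00987). For all 11, and for every other member, the libraries of the 2 times overlapped, beside 0.698% of all genes wholly below and 1.35% wholly above.

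Rpl19 had the lowest fold change of the 11, -0.24 ± 0.07 (SE; adjusted p = 0.0173), and ran from 350.1 to 437 CPM with a median of 392 at 0 h and from 276 to 402 CPM with a median of 325 at 4 h. Rpl29 held a narrow range at 0 h, 38.4 to 41.2 CPM with a median of 39.8, and a wide one at 4 h, 23.5 to 40.6 CPM with a median of 34.8 (-0.24 ± 0.07 (SE; adjusted p = 0.027)). The lowest Rpl19 and Rpl29 values at 4 h were both those of dark WT replicate 3. The other 6 changed by -0.23 (Rpl35) to -0.12 (Rpl30). The count rested on single libraries: it was 4 without replicate 3 of dark WT cells at 4 h, the library with 26.1% of counts on Gm26917, and also 4 without LiTEC replicate 1 at 4 h. It was 5, 6 and 7 without LiTEC replicate 2 at 0 h, replicate 3 at 4 h and replicate 1 at 0 h, and 20 without WT replicate 2 at 4 h. With Gm26917 and Gm42418 removed it was 11.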

How the data were processed

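RNA was measured in 36 libraries, 3 in each of 12 groups. TRIzol extraction and the TruSeq Stranded mRNA kit were used, per the labels. The authors deposited raw counts per gene, whole numbers. FastQC, featureCounts and mm10 (GRCm38) are named in the submitters' processing notes. Not given in the sources used here are versions, aligner, strand setting and the treatment of reads matching several places.

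Symbols came from the series' own name map; 79 of 83 member identifiers matched GENCODE M21 exactly and 4 without version. Genes passing filterByExpr (minimum count 10, 18193 of 54842) were scaled by TMM and fitted over all libraries with group and batch terms (edgeR 4.0.16, limma 3.58.1, R 4.3.3; quasi-likelihood F test, 23 residual degrees of freedom, Benjamini-Hochberg). The standard error is the fold change over the root of F. CPM uses TMM-scaled library sizes; levels per kb divide by the shortest principal transcript. The test was checked on simulated data. The planted changes there were larger than those of most called members, and no batch difference was planted. That check does not cover changes of the size reported for most members.

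Within groups, same-numbered lit and dark libraries deviated together in every pair (correlation 0.291 to 0.622). Batch was not removed first and the labels tie the number to batch only, so this cannot show pairing beyond batch. Equal numbers were treated as pairs only in the replicate block, an alternative fit. No 2 libraries were near-duplicates. Squared differences between libraries of a group were averaged per gene, relative to counting noise. They were 188.9 and 143.1 for dark WT replicate 3 at 4 h against the others of its group. For lit LiTEC replicate 1 at 0 h they were 36.04 and 26.35, and for all other pairs lower, down to 4.56. The fit shares an estimate of spread over all groups. Dark WT replicate 3 at 4 h was left out only in comparisons that use its group. The members and lists were chosen with earlier results of these data known. Named members are all called ones where at most 12, otherwise the 6 higher and 6 lower with the largest fold change at 5 CPM or more, 12 fixed genes by role, 5 tissue-restricted or copied relatives, the 3 highest and 3 lowest by level, and up to 4 genes per related list. Some genes that the rule names are not reported here. Members named for gene overlap, variation or ranges alone were chosen after their values were seen. Alternatives were a replicate block, no batch term, batch 2 alone, RLE factors, DESeq2 1.42.0, no filter, scaling on non-members, each library left out, and, chosen after seeing the data, removal of 2 ribosomal RNA loci.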

Additional observations from a re-analysis of the deposited data

How the results depend on the processing

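Counts of called members were recomputed 210 times over 12 comparisons, and 188 results lay within 1.5 times the main count. Most comparisons had a main count of 0, so most of these 188 are 0 beside 0 and say little about stability. Counts above 0 moved more: the 6 in WT cells at 0 h ran from 1 to 14. The 11 from 0 to 4 h in the dark ran from 1 to 21. With the replicate block, which treats equal numbers as pairs, 12 members were called in WT cells at 0 h in place of 6. It gave 19 from 0 to 4 h in the dark in place of 11, and 1 from 0 to 1 h in place of 0. It moved no other count by more than 1.5 times. Without a batch term, 17 were called between dark LiTEC and WT cells in place of 27 and 2 from 0 to 4 h. With batch 2 alone, which has fewer samples, 1 was called in WT cells at 0 h and 1 from 0 to 4 h. DESeq2 called 10 in WT cells at 0 h. Without an expression filter, 13 were called in WT cells at 0 h, 3 in WT cells at 4 h, 2 for the difference at 0 h and 21 from 0 to 4 h; the cause was not tested.

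Leaving out 1 library at a time gave 2 to 14 called members in WT cells at 0 h, 20 to 28 between the dark genotypes and 4 to 20 from 0 to 4 h, and 0 in each of the other comparisons. The WT count at 0 h was 3 without lit replicate 1, 2 without lit replicate 2 or dark replicate 3, and 14 without lit replicate 3. In that comparison the members' median stayed between -0.18 and -0.10. RLE factors, scaling on non-members and removal of the ribosomal RNA loci left each count within 1.5 times. Differences near the median standard error of 0.07 for a light effect were not detectable with 3 libraries a group.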
